A study of Homo sapiens with 2 samples.

Results

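NAP1L5 and 9 further human imprinted genes were followed in THP-1 cells, a monocytic acute myeloid leukaemia line, by RNA-seq of polyadenylated RNA. The genes were picked by name, namely NAP1L5, PEG10, SGCE, MEST, PLAGL1, SNRPN, GNAS, NDN, PEG3 and BLCAP. NAP1L5 was included because earlier results of these data had it among the genes lowest in resistant cells, so its difference is a description and has no test. Of the 10 genes, 8 had a row among the 30856 gene rows of the table, and the RNA of NDN and PEG3 is not analysed here. One library came from Ara-C-resistant THP-1 cells, which were derived by raising cytarabine (Ara-C) stepwise over a range of 5 nM to 10 μM until they grew as fast as untreated cells. The other library came from untreated parental THP-1 cells. The study compared them with a view to regulators of m6A RNA modification in cytarabine resistance. With 1 library per group, no value below has a replicate check, no test between the conditions is possible, and a change with resistance cannot be told apart from any other difference between the 2 cultures. Whether the resistant cells were a clone or a pool is not given in the sources used here.

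Genomic imprinting restricts transcription of a gene to the copy inherited from the mother or to that from the father, and the choice is kept by DNA methylation laid down in the germ line. NAP1L5, PEG10, SGCE, MEST, SNRPN, PLAGL1, NDN and PEG3 are known as genes transcribed from the paternal copy, at least in some tissues or from some promoters. GNAS is a complex locus with maternal, paternal and biallelic transcripts, and the paternally transcribed gene NNAT lies inside BLCAP. Gene-level reads do not say which parental copy or which promoter was used, so the values below are total RNA per gene. They also cannot tell fewer cells expressing a gene from less RNA per cell.

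The resistant library held 58285463 counts and the parental library 57434972. Levels are FPKM as deposited, that is fragments scaled for transcript length and library size. A log2 ratio is that of FPKM + 1, resistant over parental, and a gene was called at least 2-fold lower or higher at a log2 ratio of -1 or 1, among 11388 named genes with at least 1 FPKM in at least 1 library ("expressed"). Over all expressed genes 1.23% were at least 2-fold lower and 0.632% at least 2-fold higher, the shares to set beside each count below. With shares this small, 0 or 1 called gene in a short list says little about that list. Each fold divides the gene's share of all resistant counts by its share of all parental counts, and its exact 95% interval covers counting error only. Both libraries carried the myeloid markers of this line, with SPI1 at 62.3 FPKM in the resistant library and 64.4 FPKM in the parental library and CEBPA at 141 FPKM in resistant cells and at 139 FPKM in the parental line. Of 13 markers of the line, 11 were expressed, and the lysozyme gene LYZ was at least 2-fold lower in resistant cells and 0 were at least 2-fold higher. By counts the myeloperoxidase gene MPO was 2.97-fold lower and the growth factor receptor gene CSF1R 1.57-fold lower, whereas the granule protease genes CTSG and ELANE were higher, with folds of 1.97 and 1.25, and the Fc receptor gene FCGR1A was higher, with a fold of 1.39. The part of these marker differences in the results below was not tested. CD14, a monocyte marker, was at 0.03 FPKM in resistant cells, against 0.50 FPKM in parental cells. Of 22 markers of other cell types, 11 had a row and 0 reached 1 FPKM, with a highest value of 0.47 FPKM in resistant cells and 0.57 FPKM in parental cells.

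Promoter windows were read for the genes whose RNA differed the most between the libraries and for the SNRPN start, each reaching from 250 bases before to 50 bases after an annotated start (RefSeq, GRCh38.p14). Of the 10 genes, 7 matched this table, with 25 windows. Where a gene had several starts, the window with the most CpG dinucleotides, the sites of DNA methylation, is shown. Each is written 5′ to 3′ on the strand of its gene. Capitals mark TGCCGC or its reverse complement GCGGCA, the hexamer that the imprint-keeping zinc finger protein ZFP57 is known to bind when methylated.
NAP1L5 (chr4:88697780-88698079, minus strand): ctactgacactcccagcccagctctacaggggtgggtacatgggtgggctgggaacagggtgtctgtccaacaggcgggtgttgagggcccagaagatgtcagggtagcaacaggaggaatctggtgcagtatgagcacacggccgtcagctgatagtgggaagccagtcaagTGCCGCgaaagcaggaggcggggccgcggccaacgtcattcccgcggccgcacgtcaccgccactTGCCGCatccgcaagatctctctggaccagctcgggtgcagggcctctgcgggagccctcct
GNAS (chr20:58888930-58889229, plus strand): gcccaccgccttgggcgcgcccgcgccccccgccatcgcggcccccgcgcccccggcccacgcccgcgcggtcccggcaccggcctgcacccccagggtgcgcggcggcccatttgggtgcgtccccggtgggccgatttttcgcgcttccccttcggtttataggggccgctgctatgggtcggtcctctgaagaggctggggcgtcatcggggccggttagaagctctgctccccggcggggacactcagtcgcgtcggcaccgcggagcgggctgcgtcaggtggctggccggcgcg
MEST (chr7:130491835-130492134, plus strand): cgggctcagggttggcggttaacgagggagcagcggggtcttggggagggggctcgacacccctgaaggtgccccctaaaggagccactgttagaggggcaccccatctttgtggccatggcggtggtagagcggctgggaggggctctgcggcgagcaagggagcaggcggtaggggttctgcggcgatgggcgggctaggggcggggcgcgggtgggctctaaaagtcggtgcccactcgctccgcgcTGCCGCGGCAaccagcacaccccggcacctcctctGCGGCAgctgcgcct
SNRPN (chr15:24954737-24955036, plus strand): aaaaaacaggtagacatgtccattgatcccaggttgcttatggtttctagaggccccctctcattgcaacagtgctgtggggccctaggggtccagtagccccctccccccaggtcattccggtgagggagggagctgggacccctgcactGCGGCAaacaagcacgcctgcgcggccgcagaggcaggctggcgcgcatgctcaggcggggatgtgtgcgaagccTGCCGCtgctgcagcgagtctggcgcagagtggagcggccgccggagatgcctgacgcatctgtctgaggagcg
The NAP1L5 window held 18 CpG and 2 copies of the hexamer, both on the strand of the gene. The SNRPN window also held 18 CpG, with 1 copy of the hexamer on each strand. The MEST window held 25 CpG and 3 copies, 1 on the strand of the gene and 2 on the other, of which a pair overlap. The GNAS window held 43 CpG, more than 95.0% of all windows, and these 6 letters were not in it on either strand. It was picked from several GNAS windows by CpG number alone, and which GNAS product starts there was not determined. Over all 35116 windows the median was 14 CpG and 16.7% held the hexamer, a share that was 28.7% among the 12103 windows with 20 to 40 CpG. The NAP1L5, SNRPN and GNAS windows shown lie outside that band, as do further windows of these genes, so it is no matched background for them. The hexamer was in 13 of the 25 windows of these genes, several of which overlap each other. Among the 13 were the window of NDN and a GNAS window with 21 CpG, neither of them shown. A match is a description of the letters, and methylation was not measured.

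NAP1L5 and GNAS were both lower in resistant cells, whereas PLAGL1, BLCAP, SNRPN and MEST were less than 2-fold apart and SGCE and PEG10 were barely detected. The 6 expressed genes had log2 ratios that ran from -1.98 for NAP1L5 to 0.67 for MEST. Of these 6, 2 were at least 2-fold lower, beside 1.23% of all expressed genes, and 0 were at least 2-fold higher, beside 0.632%. Their median log2 ratio was -0.28, against -0.019 over all expressed genes, and 4 of the 6 lay below 0, as did 53.3% of all expressed genes. With a 1.5-fold rule the counts were 2 lower, beside 4.77%, and 1 higher (MEST), beside 2.93%. As NAP1L5 was picked for its low value, nothing is read from this count. With a pseudocount of 5 FPKM in place of 1, neither gene passed the 2-fold rule (log2 ratio -0.89 for NAP1L5 and -0.82 for GNAS).

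**Figure D1:**
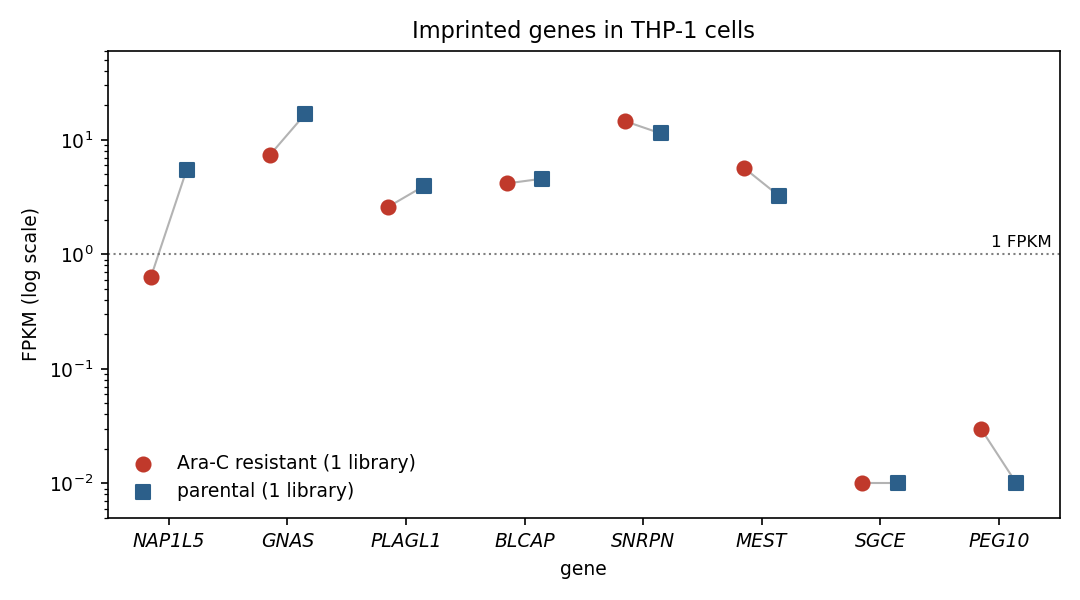
FPKM (log scale) of the 8 measured imprinted genes, with a red circle for the resistant and a blue square for the parental library of each gene and a dotted line at 1 FPKM. NAP1L5 crosses the line, at 0.64 FPKM in the resistant library and 5.48 FPKM in the parental library, and SGCE and PEG10 lie far below it in both.

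NAP1L5 (ENSG00000177432) encodes a relative of the nucleosome assembly protein NAP1, a histone chaperone, and is a single-exon gene on the minus strand of chromosome 4 from 88695913 to 88697829 (GRCh38, as in the table). It was at 0.64 FPKM in resistant cells, from 83 counts, and at 5.48 FPKM in parental cells, from 700 counts. The resistant library was thus the low one, 8.56-fold lower by counts (95% counting interval 6.81 to 10.9). It was number 11 from the lowest log2 ratio among the 11388 expressed genes. Its level was above that of 1.85% of the expressed genes in resistant cells, and above that of 46.2% in parental cells. With a pseudocount of 0.1 FPKM, which shrinks low genes less, its log2 ratio was -2.91.

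The gene lies inside HERC3, a gene for a HECT-type ubiquitin ligase on the opposite strand, and in GENCODE release 29 their exons share 0 bases. HERC3 was at 2.90 FPKM in resistant cells (1373 counts), against 3.18 FPKM (1477 counts) in parental cells, a fold of 0.916 (0.851 to 0.987). The host gene was therefore close to level in both libraries while the gene in its intron was not. The gene AC098582, which also overlaps NAP1L5 on the opposite strand, had 47 counts in resistant and 19 counts in parental cells. Its fold was 2.44 (1.40 to 4.40), from levels under 1 FPKM in both libraries. On the far side the nearest expressed gene was TIGD2, at 3.06 FPKM in resistant cells and at 4.05 FPKM in the parental line. Within 500 kb of its ends there were 5 expressed genes besides NAP1L5, with a median log2 ratio of -0.10, and 0 of them passed the 2-fold rule in either direction with the pseudocount of 1 FPKM. The lowest, named after its values were seen, was HERC5, a ligase for the ubiquitin-like protein ISG15, at 0.90 FPKM in resistant cells, against 2.52 FPKM in parental cells (log2 ratio -0.89). By counts HERC5 was at 292 in resistant cells and 801 in parental cells, a fold of 0.359 (0.313 to 0.411), and it passed the rule with a pseudocount of 0.1 FPKM. The antisense gene FAM13A-AS1, below 1 FPKM in both and named after its values were seen, had 170 counts in resistant and 319 counts in parental cells.

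Among other genes of the NAP1 fold a single one passed the 2-fold rule. Of 13 listed NAP1-like, SET and TSPYL genes, 7 were expressed, with a median log2 ratio of 0.091. Of these 7, 1 was at least 2-fold lower, beside 1.23% of all expressed genes, and 0 were higher, beside 0.632%. The lower gene was TSPYL5, at 0.54 FPKM in resistant cells (164 counts), against 2.23 FPKM (662 counts) in parental cells (log2 ratio -1.07). With a pseudocount of 5 FPKM its log2 ratio was -0.38, short of the rule. NAP1L4, which lies beside the imprinted cluster of chromosome 11, was at 30.7 FPKM in the resistant library and 24.0 FPKM in the parental library. NAP1L1, the ubiquitous histone chaperone of the family, was at 25.2 FPKM in resistant cells and at 22.7 FPKM in the parental line. NAP1L3, another single-exon relative, was at 1.12 FPKM in resistant cells, against 0.87 FPKM in parental cells. TSPYL4 was at 4.72 FPKM in the resistant library and 5.98 FPKM in the parental library.

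GNAS (ENSG00000087460) encodes the stimulatory G protein alpha subunit, which couples hormone receptors to adenylyl cyclase, along with further proteins from upstream promoters. It spans 58839718 to 58911192 on the plus strand of chromosome 20. It had 7045 counts and 7.33 FPKM in resistant cells, against 15863 counts and 16.8 FPKM in parental cells. The resistant library was 2.29-fold lower (2.22 to 2.35), and GNAS was number 100 from the lowest log2 ratio (-1.10). GNAS took 43.7% of the counts of the 8 genes in resistant cells and 63.7% in parental cells. GENCODE release 29 lists 58 transcripts for it, whose exons cover 13320 bases together. The counts and the FPKM imply a length of 16.4 kb, more than those 13320 bases. The same calculation gave 2.22 kb for NAP1L5, whose exon covers 1915 bases, so it overstates the length of both genes. Even so, the FPKM of GNAS is spread over far more sequence than the mRNA of the alpha subunit holds. It is a poor guide to the level of GNAS relative to other genes. The table has a single row for the locus, so the alpha subunit, XLalphas and NESP55 cannot be told apart.

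The antisense transcript GNAS-AS1 had 6 counts in resistant cells and 0 counts in parental cells, where 0 allows up to 3. The nearest expressed genes on each side were NPEPL1, at 2.51 FPKM in resistant cells and at 2.58 FPKM in the parental line, and NELFCD, at 10.3 FPKM in resistant cells, against 11.2 FPKM in parental cells. Among the 8 expressed genes within 500 kb, the log2 ratios ran from -0.36 for the cathepsin gene CTSZ to 0.19 for the Rab GTPase gene RAB22A, with a median of 0.0059. CTSZ and RAB22A are named as the ends of this range. The read-through gene STX16-NPEPL1, named after its values were seen, had 19 counts in resistant and 246 counts in parental cells. Summed with STX16 and NPEPL1, the genes it reads through, the counts gave a fold of 1.01 (0.984 to 1.04).

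Genes around Gs signalling lay on both sides of 0. Of 38 listed subunits, adenylyl cyclases, protein kinase A subunits, phosphodiesterases and receptors, 26 were expressed, with a median log2 ratio of 0.055. With the pseudocount of 1 FPKM, 0 passed the 2-fold rule in either direction, beside 1.23% of all expressed genes lower and 0.632% higher. That count depends on the pseudocount: with 0.1 FPKM, 2 were lower (PDE4A, log2 ratio -1.76, and PRKAR2B, -1.01) and 1 was higher (PTGER2, 1.24). PRKAR2B, a regulatory subunit of protein kinase A, was at 3.71 FPKM in the resistant library and 7.58 FPKM in the parental library (fold 0.491, 0.456 to 0.528). PDE4A, which degrades cyclic AMP, was at 0.29 FPKM in resistant cells (135 counts), against 1.22 FPKM (552 counts) in parental cells, a fold of 0.241 (0.198 to 0.291). PTGER2, a receptor for prostaglandin E2 that couples to this G protein, was at 2.17 FPKM in resistant cells (365 counts), against 0.86 FPKM (142 counts) in parental cells, a fold of 2.53 (2.08 to 3.10). The catalytic subunit gene PRKACB was at 8.99 FPKM in the resistant library and 5.01 FPKM in the parental library. GNAL, the close relative of the alpha subunit, was at 0.40 FPKM in resistant cells and at 0.65 FPKM in the parental line.

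**Figure D2:**
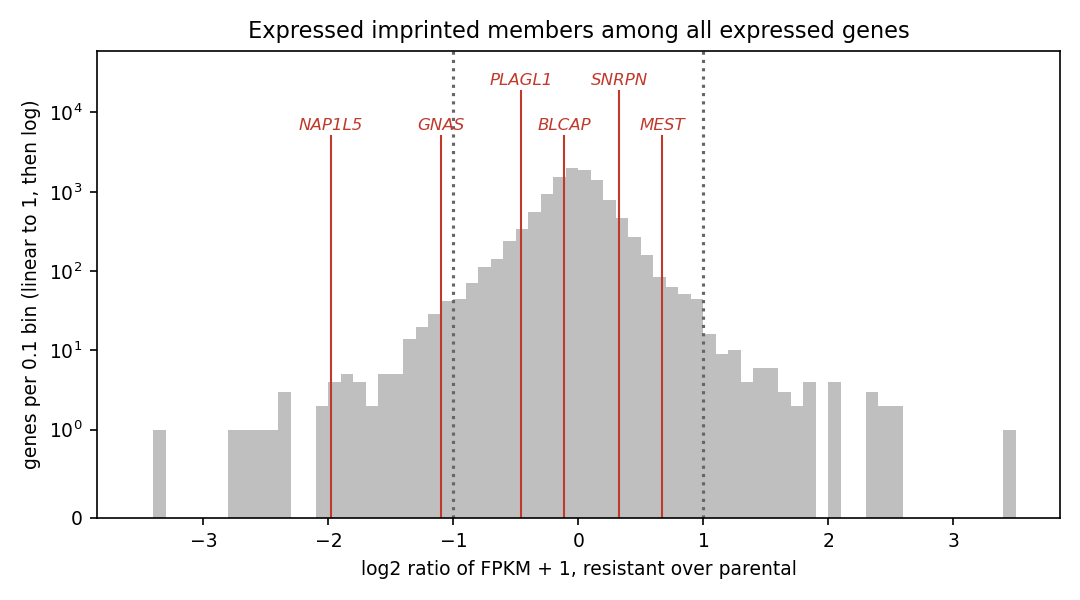
Histogram of the log2 ratio of FPKM + 1 (resistant over parental) for the 11388 expressed genes, in bins of 0.1, with the count axis linear up to 1 and logarithmic above. Red lines mark the 6 expressed imprinted genes; NAP1L5 (-1.98) and GNAS (-1.10) lie left of the dotted line at -1, and the other 4 lie between the dotted lines.

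PLAGL1, a zinc finger transcription factor linked to cell cycle arrest, was at 2.60 FPKM in resistant cells (1547 counts), against 3.94 FPKM (2303 counts) in parental cells. The fold was 0.662 (0.620 to 0.706), lower in resistant cells but inside the 2-fold rule. The noncoding HYMAI, on the same strand and inside PLAGL1 on chromosome 6, had 9 counts in resistant and 1 count in parental cells, too few to size a difference. The flanking genes SF3B5 and LTV1 were both slightly higher in resistant cells, at log2 ratios of 0.19 and 0.20. The relative PLAGL2 was at 9.08 FPKM in resistant cells, against 11.2 FPKM in parental cells, and the oncogene PLAG1 was under 1 FPKM in both.

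BLCAP, a small membrane protein gene on chromosome 20, was close to level, at 4.16 FPKM in resistant cells (2227 counts), against 4.58 FPKM (2408 counts) in parental cells (fold 0.911, 0.860 to 0.966). NNAT, the neuronatin gene in its intron on the opposite strand, had 39 counts in resistant and 54 counts in parental cells (fold 0.712, 0.459 to 1.09), an interval that includes equal levels. The flanking tyrosine kinase gene SRC was at 1.39 FPKM in the resistant library and 0.75 FPKM in the parental library, and CTNNBL1 was at 12.4 FPKM in resistant cells and at 11.0 FPKM in the parental line.

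MEST and SNRPN were the expressed genes of the set that were higher in resistant cells. MEST, which encodes a membrane protein of the alpha/beta hydrolase fold, was at 5.71 FPKM in resistant cells (1851 counts), against 3.22 FPKM (1026 counts) in parental cells. The fold was 1.78 (1.65 to 1.92), and MEST was number 250 from the highest log2 ratio (0.67). COPG2, a coatomer subunit gene that overlaps the end of MEST on the opposite strand by 228 bases, was at 5.12 FPKM in resistant cells, against 4.71 FPKM in parental cells. CEP41, the nearest expressed gene on the other side, was lower in resistant cells, at 1.13 FPKM against 1.45 FPKM in parental cells. The strand setting of the authors' counting is not known here, so reads from exons that overlap on opposite strands, as in MEST and COPG2, BLCAP and NNAT, or SGCE and PEG10, cannot be told apart. MESTIT1, an antisense transcript at the MEST start, had 0 counts in resistant and 2 counts in parental cells.

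SNRPN encodes SmN, a core protein of spliceosomal particles that stands in for SmB in neurons, and lies in the Prader-Willi region of chromosome 15 from 24823637 to 24978723. It was at 14.5 FPKM in resistant cells (3363 counts), against 11.4 FPKM (2588 counts) in parental cells (fold 1.28, 1.22 to 1.35). SNHG14, the long host transcript of the small nucleolar RNAs downstream, had 4578 counts in resistant and 3519 counts in parental cells, also a fold of 1.28 (1.23 to 1.34). Both transcripts of this unit were thus higher in resistant cells by the same factor, and the long SNHG14 was low per length (0.55 FPKM in resistant cells, against 0.43 FPKM in parental cells). UBE3A is the ubiquitin ligase gene that SNHG14 runs against and that is maternally expressed in neurons. It was at 4.76 FPKM in the resistant library and 4.96 FPKM in the parental library. The spans of SNHG14 and UBE3A overlap on opposite strands, so with the strand setting unknown their reads may be mixed there. ATP10A, further along, was at 1.54 FPKM in resistant cells and at 0.97 FPKM in the parental line (fold 1.59, 1.49 to 1.71). TUBGCP5, the nearest expressed gene on the other side of SNRPN, lies more than 500 kb away. It was at 5.24 FPKM in resistant cells, against 3.17 FPKM in parental cells, a log2 ratio of 0.58.

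SNURF, read from the same transcript as SNRPN, had 107 counts in resistant and 10 counts in parental cells, a fold of 10.5 (5.52 to 22.6). Its exons share 814 of their 1175 bases with SNRPN in GENCODE release 29, so the authors' counting could split reads between the 2 rows and its value is uncertain. Summed over both rows the counts were 3470 in resistant and 2598 in parental cells, a fold of 1.32 (1.25 to 1.39). The partners of SmN were nearly level as a list: all 15 listed Sm, U1 and assembly genes were expressed, with a median log2 ratio of -0.050. Of them 0 passed the 2-fold rule, beside 1.23% of all expressed genes lower and 0.632% higher. SNRPB, which encodes SmB and SmB', was at 97.0 FPKM in the resistant library and 107 FPKM in the parental library. The assembly gene GEMIN2 was the highest, at 6.0 FPKM in resistant cells and at 3.87 FPKM in the parental line.

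**Figure D3:**
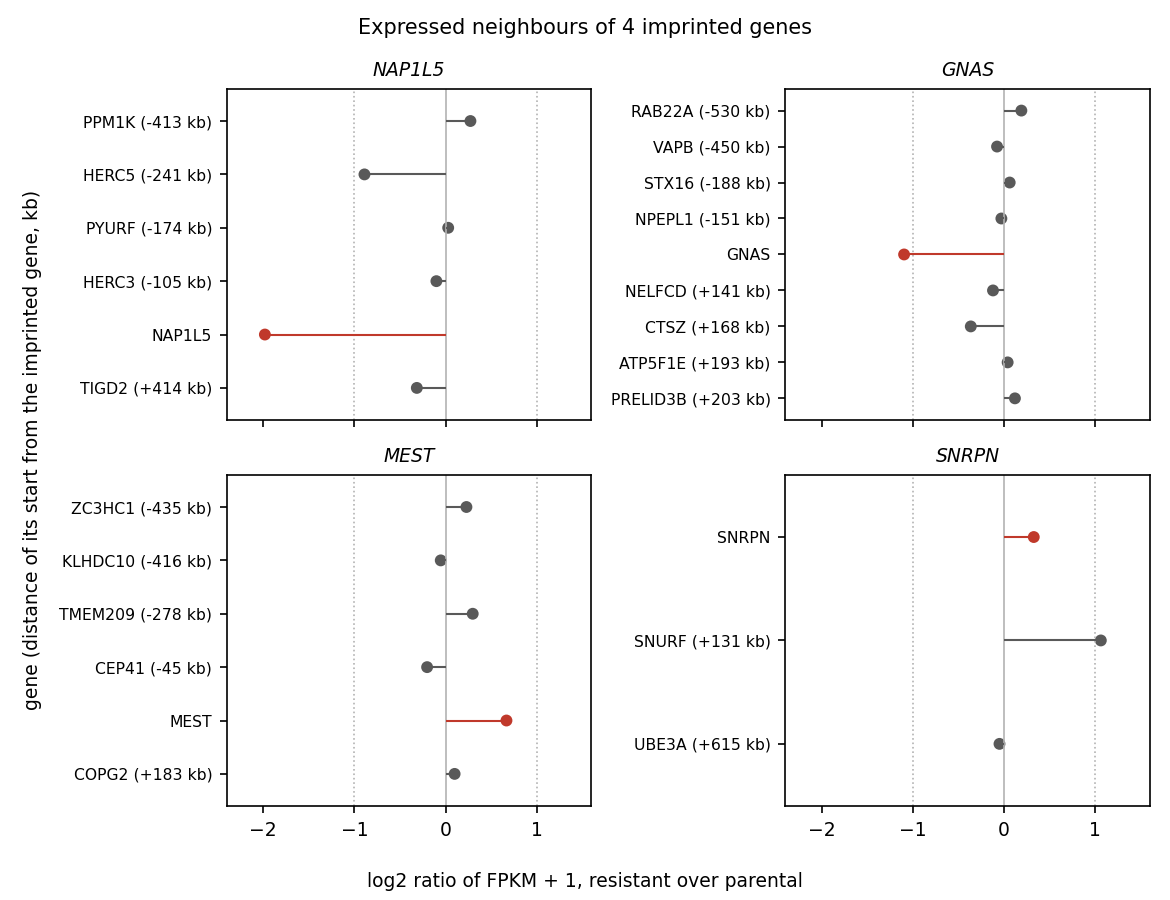
Log2 ratios of FPKM + 1 (resistant over parental) for NAP1L5, GNAS, MEST and SNRPN (red) and the expressed genes within 500 kb of each (grey), in order along the chromosome with the distance between annotated starts in kb. On this scale NAP1L5 and GNAS lie beyond the dotted line at -1 and none of their plotted neighbours does, HERC5 coming nearest at -0.89.

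SGCE and PEG10, which start close together on opposite strands of chromosome 7, were not expressed at 1 FPKM in either library. SGCE, the epsilon-sarcoglycan gene that is mutated in myoclonus-dystonia, had 10 counts in resistant and 20 counts in parental cells, a fold of 0.493 (0.206 to 1.10). PEG10, derived from the gag and pol genes of a retrotransposon and required for the mouse placenta, had 15 counts in resistant and 7 counts in parental cells, a fold of 2.11 (0.810 to 6.12). Both intervals include equal levels, so no difference was detectable at this depth. CASD1, which overlaps the far end of SGCE, was at 2.95 FPKM in resistant cells, against 2.84 FPKM in parental cells. The nearest expressed gene on the PEG10 side was PON2, a paraoxonase gene, at 0.43 FPKM in resistant cells (118 counts), against 2.49 FPKM (646 counts) in parental cells (fold 0.180, 0.147 to 0.219). PON2 lies more than 500 kb from PEG10 and SGCE, so it is no close neighbour. Among the nearest expressed genes around the 8 imprinted genes it was the only one at least 2-fold lower, beside 1.23% of all expressed genes.

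Relatives of these proteins were measured for comparison. Over all expressed genes 1.23% were at least 2-fold lower and 0.632% at least 2-fold higher. Of 14 sarcoglycan and dystrophin complex genes, 7 were expressed and 0 passed the 2-fold rule (median log2 ratio -0.099); SGCB was at 1.13 FPKM in resistant cells (336 counts), against 2.83 FPKM (823 counts) in parental cells. By counts SGCB was 2.49-fold lower (0.402, 0.353 to 0.457), and it passed the rule with a pseudocount of 0.1 FPKM (log2 ratio -1.25). Of 18 genes derived from retrotransposon gag, 6 were expressed and 0 passed (median -0.11), with RTL6 at 6.44 FPKM in resistant cells and at 11.6 FPKM in the parental line. Of 11 genes of the type II MAGE family and its partner NSMCE1, to which NDN belongs by sequence, 6 were expressed and 0 passed (median -0.27). MAGEF1 was at 4.97 FPKM in resistant cells, against 9.38 FPKM in parental cells. Of the 6, 5 lay below 0, beside 53.3% of all expressed genes.

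A wider list of 65 imprinted genes was read in the same way. A row was found for 43, of which 21 were expressed. Of these 21, 0 were at least 2-fold lower, beside 1.23% of all expressed genes, and 1, SNURF, was at least 2-fold higher, beside 0.632%. With so few genes, these counts are not read as a result about imprinted genes. The median log2 ratio was -0.014, with 10 above 0 and 11 below, beside -0.019 over all expressed genes. Just short of the rule was MCTS2P (log2 ratio 0.99), with 56 counts in resistant and 6 counts in parental cells. MCTS2P lies inside HM13 on the same strand, is a copy of MCTS1, and all 670 of its bases are exonic in HM13 as well, so its value is uncertain; the HM13 and MCTS2P counts together gave a fold of 1.00 (0.965 to 1.04).

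The imprinted cluster of chromosome 11p15 was expressed only in part. OSBPL5, a lipid transfer protein gene, was at 18.1 FPKM in the resistant library and 10.4 FPKM in the parental library (fold 1.74, 1.69 to 1.80), and the transporter gene SLC22A18 was at 2.26 FPKM in resistant cells and at 1.49 FPKM in the parental line. The potassium channel gene KCNQ1 was lower in resistant cells, at 2.85 FPKM against 3.68 FPKM in parental cells, and PHLDA2 was at 2.77 FPKM in resistant cells, against 3.16 FPKM in parental cells. H19, a noncoding RNA, was under 1 FPKM, with 78 counts in resistant and 42 counts in parental cells. CDKN1C, a cell cycle inhibitor, was also under 1 FPKM, with 20 counts in resistant and 45 counts in parental cells. The retinoblastoma gene RB1, which has an imprinted alternative promoter, had the lowest log2 ratio among the expressed genes of the wider list, at 11.3 FPKM in the resistant library and 16.8 FPKM in the parental library (fold 0.674, 0.650 to 0.699). Some genes of the list under 1 FPKM had lower folds than RB1, CDKN1C among them (0.438, 0.245 to 0.757). LPAR6, a receptor gene inside RB1, had 74 counts in resistant cells, against 191 counts in parental cells (fold 0.382, 0.288 to 0.502). NLRP2 had 9 counts in resistant cells, against 46 counts in parental cells (fold 0.193, 0.0830 to 0.399). Others under 1 FPKM were higher in resistant cells, such as H19 (fold 1.83, 1.24 to 2.73). MKRN3 on chromosome 15, named after its values were seen, had 333 counts in resistant and 191 counts in parental cells (fold 1.72, 1.43 to 2.06).

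The remaining expressed genes of the wider list were all less than 1.5-fold apart. IGF2R, a receptor that sorts lysosomal enzymes, was at 21.3 FPKM in resistant cells and at 20.6 FPKM in the parental line, and WT1 was at 3.83 FPKM in resistant cells, against 3.60 FPKM in parental cells. The adaptor gene GRB10 was at 2.55 FPKM in the resistant library and 3.04 FPKM in the parental library. ZNF331 was at 1.52 FPKM in resistant cells and at 2.06 FPKM in the parental line, and ZNF597 was at 1.26 FPKM in resistant cells, against 1.53 FPKM in parental cells. INPP5F was at 1.91 FPKM in the resistant library and 1.52 FPKM in the parental library. The others, NAA60, WT1-AS, ZFAT, TRAPPC9 and HM13, had log2 ratios from -0.16 (TRAPPC9) to 0.12 (ZFAT). The 22 genes with a row that were not expressed stayed at or below 0.85 FPKM in resistant cells and 0.66 FPKM in parental cells, and 3 of them had 0 counts in both.

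**Figure D4:**
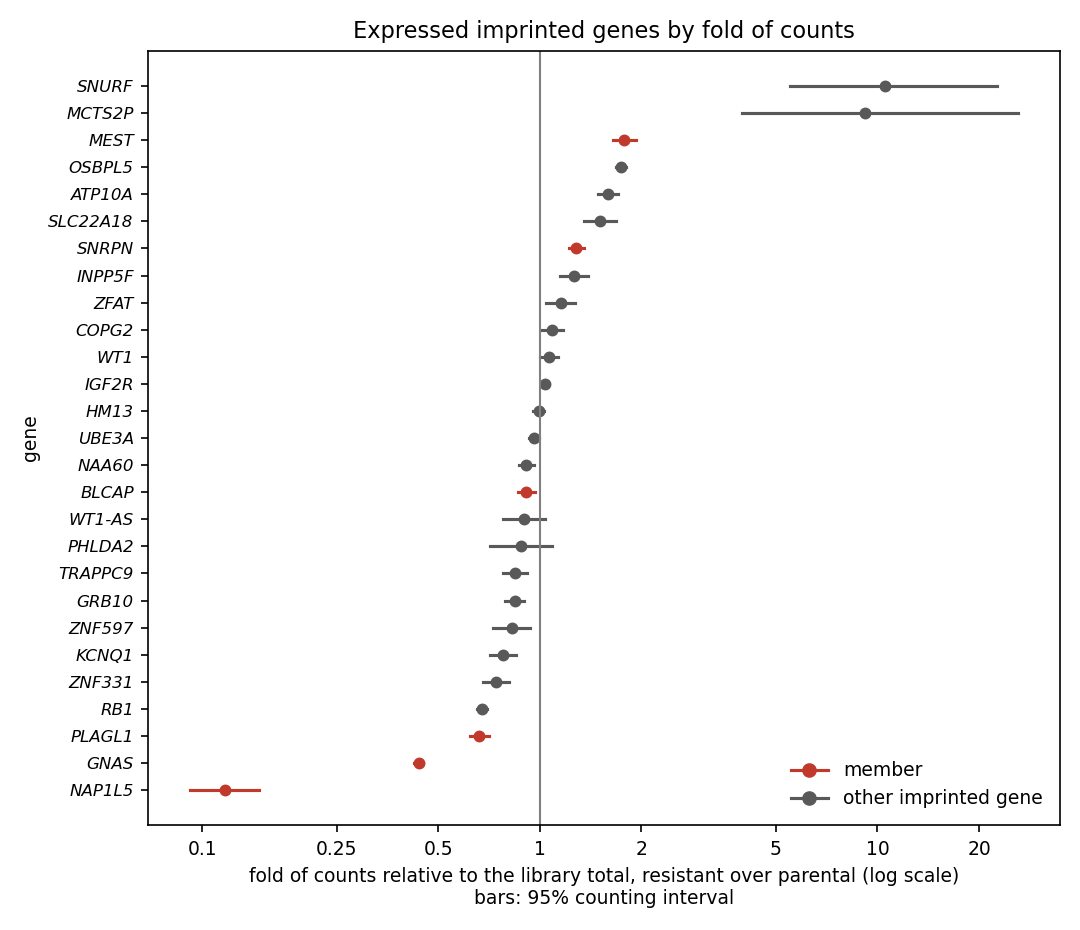
Fold of each gene's share of the library counts (resistant over parental, log scale) with 95% counting intervals for the 6 expressed members of the set (red) and the 21 other expressed imprinted genes (grey). NAP1L5 (0.117) and GNAS (0.438) are the lowest, SNURF (10.5) and MCTS2P (9.20) the highest with wide intervals.

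Of 28 listed factors that set or keep imprints, 17 were expressed. Of these 17, 0 passed the 2-fold rule in either direction, beside 1.23% of all expressed genes lower and 0.632% higher. Their median log2 ratio was -0.14, beside -0.019 over all expressed genes, and 13 of the 17 lay below 0, beside 53.3% of all expressed genes. DNMT1, the maintenance DNA methyltransferase, was at 32.8 FPKM in resistant cells and at 37.9 FPKM in the parental line. Its partner UHRF1 was at 30.8 FPKM in resistant cells, against 40.9 FPKM in parental cells. The histone methyltransferase genes EHMT2 and EHMT1 lay at opposite ends of the list, with EHMT2 at 12.6 FPKM in the resistant library and 18.7 FPKM in the parental library and EHMT1 at 5.88 FPKM in resistant cells and at 4.42 FPKM in the parental line. TRIM28, the corepressor that imprint-keeping zinc finger proteins recruit, was at 89.2 FPKM in resistant cells, against 102 FPKM in parental cells. ZFP57 had 0 counts in the resistant and in the parental library, and a count of 0 leaves room for 3, and ZNF445, the other known imprint-keeping zinc finger gene, was at 2.36 FPKM in the resistant library and 2.61 FPKM in the parental library.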

How the data were processed

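RNA was poly(A)-selected, made into libraries that keep the strand and sequenced as read pairs, per the labels' protocols. The deposited table held, per gene and library, an FPKM value and a whole-number read count. Per the submitters' processing notes, the tools were HISAT2 2.0.4, StringTie 1.3.4d, cutadapt 1.9, edgeR and DESeq2, and the build was GRCh38; which tool made which column, how multi-mapping reads and strand were treated, and the annotation release are not given in the sources used here. The authors normalised FPKM for length and depth; the deposited counts were not normalised. The resistant count column carried an unexplained suffix; over 6130 genes its log2 ratios differed from those of FPKM by a constant (median -0.025, SD 0.00089).

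Genes whose name was a clone name were left out, and 11388 of 22880 named rows reached 1 FPKM. Log2 ratios used a pseudocount of 1 FPKM, which shrinks low genes. Each fold interval was derived from an exact binomial (Clopper-Pearson) interval on the resistant part of a gene's counts. Read pairs are not independent molecules, so they cover counting error only. The members and gene lists were chosen with earlier results of these data known. Named genes were the members, overlapping and nearest expressed genes, every expressed gene of the wider imprinted list and the members of the other lists that were past 2-fold or among the 3 largest absolute log2 ratios; for lists, not all of these are printed, and further genes named, such as GNAL, H19, CDKN1C, LPAR6, NLRP2, DNMT1, TRIM28 and ZFP57, were chosen after their values were seen. Of the gene IDs shared with GENCODE release 29, 99.8% lay at overlapping positions. The steps were tested on simulated data that held counting error only, with changes set in genes averaging at least 5 FPKM. That test does not cover differences in genes as low as NAP1L5, or variation between cultures. Alternatives covered pseudocount, filter, scaling, size rule and gene class. Tables were handled with pandas 2.3.3 and numpy 2.4.6 under Python 3.11.15, intervals with scipy 1.17.1 and plots with matplotlib 3.10.9.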

Additional observations from a re-analysis of the deposited data

How the results depend on the processing

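The counts past the 2-fold rule for the 10 genes and the wider imprinted list were recomputed under 8 alternatives, their medians under 7 and the log2 ratios of single named genes under 5 or 6. Count folds, and the medians of the other lists, have no alternative. The count of the 10 imprinted genes that were at least 2-fold lower was 2, and it was 0 with a pseudocount of 5 FPKM, which shrinks every ratio by construction; under the other alternatives it stayed at 2. The count higher was 0, and 1 (MEST) with a 1.5-fold rule. Their median log2 ratio was -0.28, against -0.15 with a pseudocount of 5 FPKM, -0.056 with no filter, which lets in SGCE and PEG10, and -0.38 with a minimum of 5 FPKM, which leaves 4 genes. In the wider list the count at least 2-fold higher was 1, against 2 with a pseudocount of 0.1 FPKM, 0 with 5 FPKM, 0 with a minimum of 5 FPKM and 3 with a 1.5-fold rule; its median log2 ratio stayed between -0.0156 and 0.0168. Of 49 named genes, 48 kept the sign of their log2 ratio under all alternatives that gave a value, the exception being HM13 (-0.014). Over all expressed genes 140 were at least 2-fold lower and 72 higher, against 366 and 226 with a pseudocount of 0.1 FPKM, 16 and 14 with 5 FPKM, 53 and 36 with a minimum of 5 FPKM, 263 and 112 on counts scaled to library size, and 543 and 334 with a 1.5-fold rule. For the other lists and the 500 kb windows the alternatives were chosen after seeing the data. With a pseudocount of 0.1 FPKM, PDE4A, PRKAR2B, SGCB, MPO and HERC5 were also at least 2-fold lower and PTGER2 and RNA5SP221 (13 counts in resistant cells, against 4 counts in parental cells) higher; on counts scaled to library size this held for PDE4A, SGCB, MPO, HERC5 and PTGER2. TSPYL5 fell short of the rule with a pseudocount of 5 FPKM (log2 ratio -0.38), and a minimum of 5 FPKM left it out. No paired analysis was possible because each group has 1 library. At the counts of SGCE, PEG10 and NNAT no difference was detectable.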

Other observations

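The expressed protein-coding genes whose pair of levels lay nearest to that of NAP1L5, by Euclidean distance in log2(FPKM + 1) over the 2 libraries, were NUDT10, VCAN and CDC42EP1, at distances of 0.10, 0.21 and 0.23. NUDT10, a phosphohydrolase of the NUDIX family, was at 0.73 FPKM in resistant cells and at 5.19 FPKM in the parental line. VCAN, the matrix proteoglycan versican, was at 0.90 FPKM in resistant cells, against 5.38 FPKM in parental cells. CDC42EP1, an effector of the GTPase CDC42, was at 0.53 FPKM in the resistant library and 4.63 FPKM in the parental library. Likeness over 2 libraries says only that the pairs of values are close.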
